A study of Mus musculus with 13 samples.

Results

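The nuclear genes for subunits of the mitochondrial respiratory chain and ATP synthase were followed in C2C12 cells, a mouse skeletal myoblast line, after knockdown (KD) of YBX3, an RNA-binding protein. Members were the protein-coding genes whose symbol begins with Nduf and a subunit letter and number, Sdha to Sdhd, Uqcr, Cyc1, Cox of series 4 to 8, or Atp5, in GENCODE vM39. The rule found 84 of the 55642 genes in the table. They carry 83 symbols, since Atp5po names a second locus (ENSMUSG00000116933), and lie on 19 nuclear chromosomes of GRCm39. After a filter on low counts, 80 of the members were among the 16848 genes tested. The other 4 were Cox8c, with no count in any library, Cox6b2, Cox8b and the second Atp5po locus.

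Cells were reverse transfected with siRNAs, either nontargeting (siNT, termed control KD) or directed at YBX3 (siYBX3, termed YBX3 KD), and all were harvested 48 h later. At 0 day they were proliferating, with fetal bovine serum in the medium. At 1 day the medium had been replaced 24 h after transfection by one with 10% horse serum, which starts differentiation. At 0 day each siRNA had 4 libraries, with the letters A to D. At 1 day 2 libraries remained for control KD, C and D, and 3 for YBX3 KD, B to D. All came from 1 cell line, and the knockdown was transient.

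Oxidative phosphorylation passes electrons from NADH through complex I, or from succinate through complex II, to complex III and then complex IV, which reduces oxygen. Complexes I, III and IV pump protons across the inner mitochondrial membrane, and ATP synthase (complex V) uses the gradient to make ATP. Most subunits are encoded in the nucleus and imported, a few are encoded by mitochondrial DNA, and both sets are needed in fixed proportion in an assembled complex. Differentiating muscle is known for making more mitochondria and for exchanging some complex IV subunits for muscle forms.

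Nuclear respiratory factor 1 (NRF1) and the ETS family factor GABP are textbook activators of these genes, so their core motifs were searched in the promoters of the members. The RefSeq promoter table (build GRCm38.p6, 250 bases before to 50 after each start site) held 67 members. The NRF1 motif, spelled GCGCA, then any base, then GCGC, and searched on both strands, was present in 17 of them (25.4%), against 5.19% of all 27025 genes in the table and 10.9% of the 10912 that were tested here. The ETS motif CCGGAAG, also on both strands, was present in 16 members (23.9%), against 9.93% of all genes and 19.2% of tested genes. Atp5me, Atp5pd, Cox6a1 and Sdhd held both, and in none did a match of the first motif overlap one of the second. These matches describe the letters of the windows and are not evidence of binding.

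Windows of 30 bases, 5′ to 3′ on the strand of the gene with the motif in capitals, are shown for members that were lower after YBX3 KD with the replicate letter in the fit (Sdha, Sdhd, Ndufs3 and Atp5f1c) and for Cox6a1, which was not lower. All 5 genes lie on the minus strand of GRCm38.p6.
Sdha, NRF1 motif, chr13:74350276-74350305: ggggcgtgttGCGCAGGCGCagaatcttcc
Sdha, NRF1 motif, chr13:74350319-74350348: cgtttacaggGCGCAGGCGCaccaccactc
Sdhd, NRF1 motif, chr9:50603909-50603938: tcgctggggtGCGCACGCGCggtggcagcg
Sdhd, ETS motif, chr9:50603877-50603906: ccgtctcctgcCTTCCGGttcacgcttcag
Ndufs3, ETS motif, chr2:90904730-90904759: cccgcgtccgcCCGGAAGaagagtcactgc
Atp5f1c, NRF1 motif, chr2:10080433-10080462: cgcctgagctcccGCGCACGCGCactgagt
Cox6a1, NRF1 motif, chr5:115349101-115349130: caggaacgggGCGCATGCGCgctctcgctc
Cox6a1, ETS motif, chr5:115348959-115348988: cgtccccatttccgCTTCCGGcgcgccggt

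Library totals ranged from 33451547 to 71811371 counts. Ybx3 had 264, 314 and 346 CPM (counts scaled to library size with TMM factors) as the lowest, median and highest of 6 control KD libraries. In 7 YBX3 KD libraries it had 28.7, 42.9 and 71.5 CPM, and the groups did not overlap (log2 fold change -2.81, SE 0.17, edgeR adjusted p = 5.26e-06). Libraries with the same replicate letter deviated together, so values with the letter as a block stand beside those that it changes. Some low transcripts were high in replicate D libraries, and values without that letter are given where they differ. Of 7 myoblast markers, Itga7, Cdh15, Vcam1, Myf5 and Des were present in all libraries, at a lowest CPM of 329, 99.6, 56.9, 31.3 and 15.5, whereas Pax7 did not exceed 0.179 CPM. Myod1 was low, at 0.601 to 1.80 CPM in control KD, against 1.15 to 3.32 CPM in YBX3 KD (log2 fold change 1.11, adjusted p = 0.0726, and 0.0155 with the block), and its part in the results was not tested. Among leukocyte markers, Adgre1 had no count, Ptprc and Cd3e stayed under 0.1 CPM, and Cd68 had up to 2.47 CPM. Summed adipocyte markers did not exceed 0.176 CPM. Of the neural markers Map2 was present in all libraries, at 27.5 to 58.7 CPM, and the others did not exceed 0.822 CPM. Summed endothelial markers were 0.776 to 1.54 CPM in control KD, against 1.06 to 1.74 CPM in YBX3 KD. Tek was higher (edgeR adjusted p = 0.0375) but near the floor, at 104 counts over all libraries. It had 0.0485 to 0.114 CPM in control KD and 0.0512 to 0.318 CPM in YBX3 KD. The part of the endothelial markers in the results was not tested.

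The subunit genes together made up 0.888% to 1.07% of each library. In control KD cells the highest were Atp5f1b and Atp5f1a, the catalytic beta and the alpha subunit of ATP synthase, at a median of 1922 and 734 CPM. CPM depends on transcript length, so this is an order of reads and not of molecules. Within groups the median coefficient of variation of the tested members was 7.37% to 10.7%, against 13.5% to 21.9% for all genes tested. These sets were not matched for abundance, so the difference is not read as steadier expression. The most variable member of each group had 42.6% to 135%.

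YBX3 KD was first compared with control KD over both days, which asks whether loss of YBX3 changes the chain as a whole. Most members were slightly lower after YBX3 KD: 65 of 80 had a negative log2 fold change, with a median of -0.091 (93.9% of control), against a median of 0.001 over all genes tested, 49.9% of which were lower. No member was called at a fold change above 1.3 and an adjusted p under 0.001, where 0.113% of tested genes were, and none had an adjusted p under 0.05, where 2.34% were (edgeR). At an unadjusted p under 0.05 there were 15 members, all lower, where 6.93% of tested genes were lower and 8.71% higher. The 95% interval of the fold change lay inside a 1.3-fold change in either direction for 67 of the 80. In bulk RNA, fewer cells of a kind and less RNA per cell cannot be told apart.

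**Figure D1:**
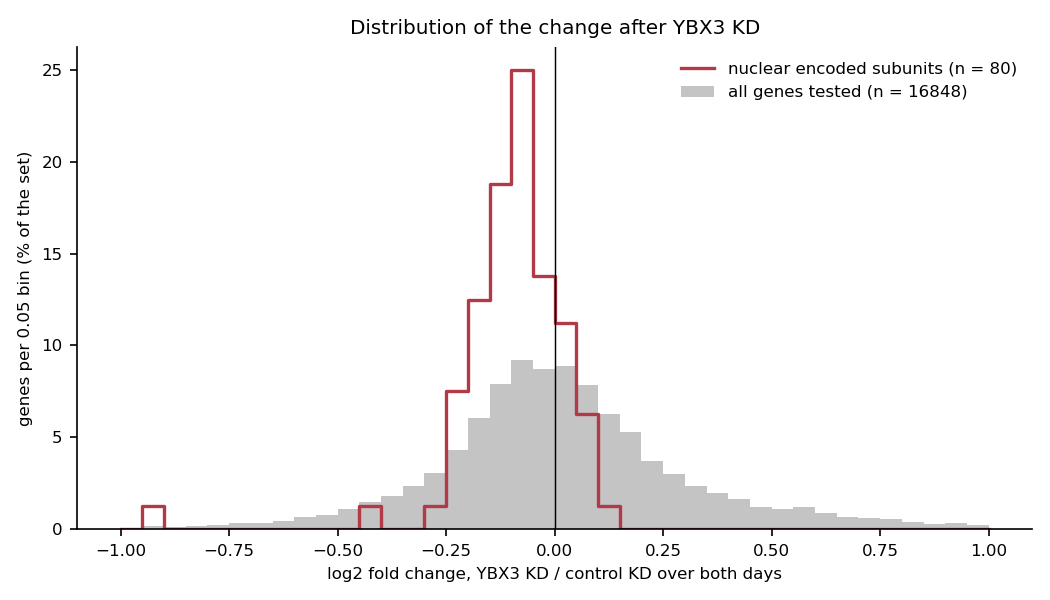
Percent of genes in each bin of 0.05 of the log2 fold change between YBX3 KD and control KD over both days, for 80 nuclear encoded subunits (red line) and 16848 tested genes (grey bars). The subunits peak below 0, with a median of -0.091 against 0.001, and 402 tested genes beyond 1 in either direction are not drawn.

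With the replicate letter as a block, 18 of 80 members had an adjusted p under 0.05 and all 18 were lower, against 9.78% of all genes in either direction and 4.38% lower (edgeR). At an unadjusted p under 0.05 the block gave 31 members, all lower, where 13.5% of genes were lower and 14.9% higher. DESeq2 gave 8 lower members (10.0%) without the block and 28 (35.0%) with it, where 7.0% and 17.6% of genes passed in either direction. Without the libraries of letter D, edgeR gave 4 members (5.0%) with no block, a smaller share than the 12.5% of genes that passed. No member passed the fold change threshold with the stricter adjusted p in any of these fits. There were 6 pairs of libraries of the same letter and day, and 27 members were lower after YBX3 KD in all 6, against 7.97% of all genes. No member was higher in all 6, against 9.35%. Members and all genes were not matched for abundance or spread, in this or any other comparison. Larger shares among the members are therefore not read as particular to them. Within the pairs, the median log2 difference over the members ran from -0.189 for replicate C at 0 day to -0.036 for replicate A at 0 day.

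**Figure D2:**
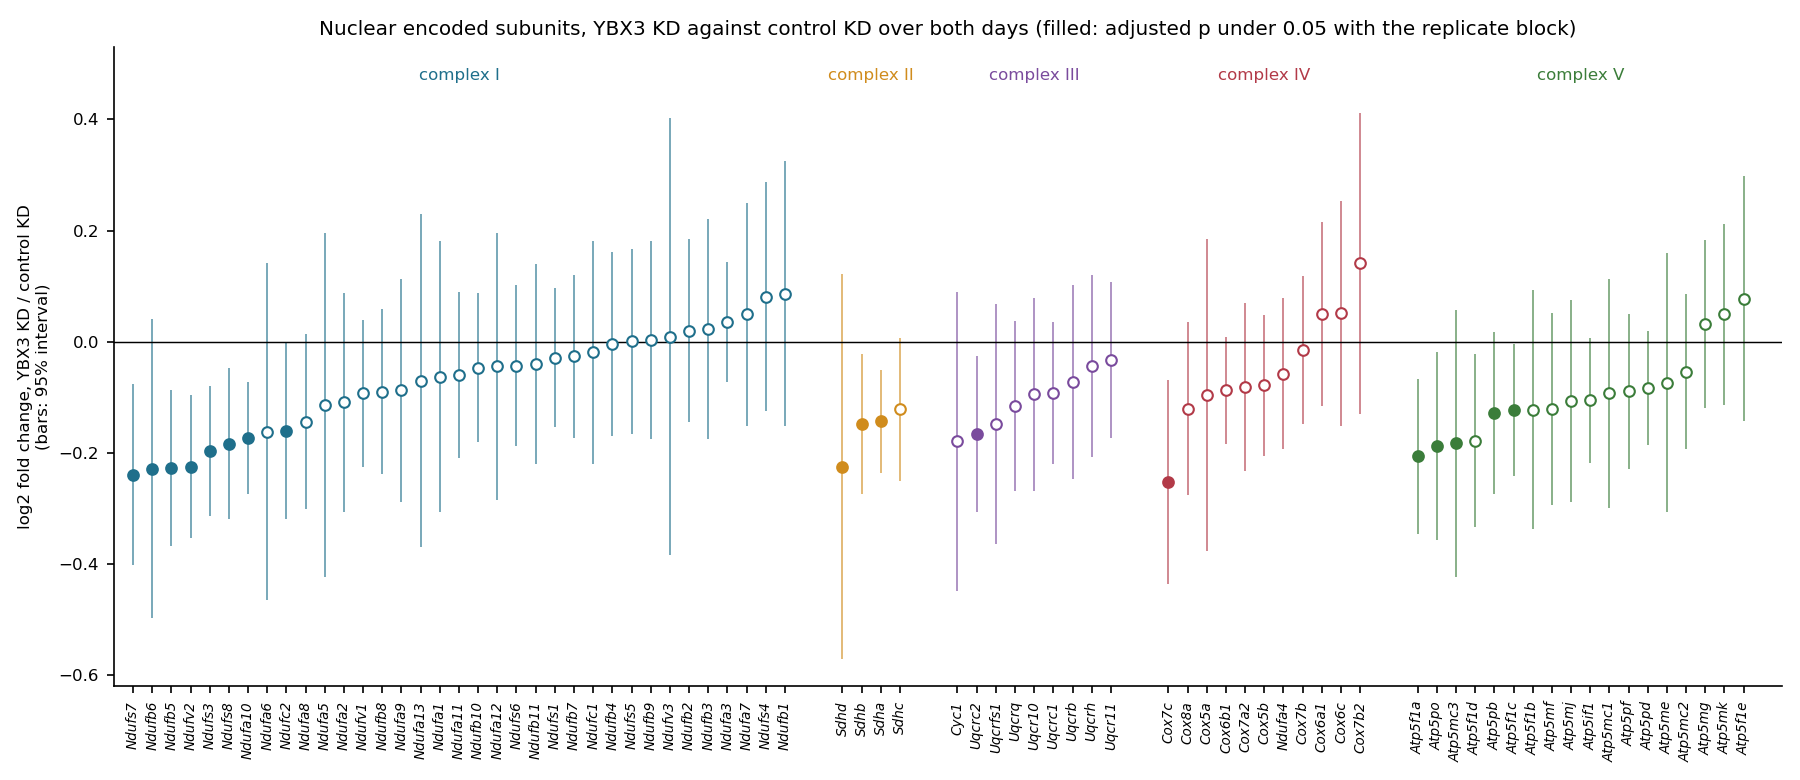
Log2 fold change of each subunit gene between YBX3 KD and control KD over both days with its 95% interval, by complex; Cox6a2 and Cox7a1, under 3 CPM in all libraries with wide intervals, and a member not reported here are left out. Filled points are the 18 members with an adjusted p under 0.05 when the replicate letter was a block, and all of these lie below 0.

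The core subunits of complex I, which carry the flavin, the iron-sulfur clusters and the quinone site, were lower in 7 of 7 cases, with a median log2 fold change of -0.18. Ndufv2 (chr17:66385633-66408634, GRCm39, minus strand), an iron-sulfur subunit of the NADH-oxidizing module, had the smallest p of all members. Its levels in control KD were 90.9, 97.5, 104.5 and 90.9 CPM at 0 day and 97.7 and 91.4 CPM at 1 day. In YBX3 KD they were 77.9, 80.1, 83.5 and 77.1 CPM at 0 day and 89.3, 89.4 and 76.6 CPM at 1 day. Every YBX3 KD library was below every control KD library. The log2 fold change was -0.23 (SE 0.059, edgeR adjusted p = 0.0726, and 0.0124 with the block).

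Ndufs3 (chr2:90724969-90735284, minus strand), a core subunit of the quinone-reducing module whose promoter window is shown above, was also free of overlap. It had 49.4, 54.2, 50.7 and 55.7 CPM in control KD at 0 day and 51.2 and 50.9 CPM at 1 day. In YBX3 KD it had 43.8, 47.3, 41.8 and 43.5 CPM at 0 day and 46.9, 46.6 and 48.8 CPM at 1 day. Every YBX3 KD value was below the lowest control KD value (log2 fold change over both days -0.20, SE 0.054, adjusted p = 0.0837, and 0.0275 with the block). In all, 3 members had every YBX3 KD library below every control KD library, the other being Sdha, against 1.08% of tested genes. Ndufs7 and Ndufs8, which hold the iron-sulfur clusters nearest the quinone, had log2 fold changes of -0.24 and -0.18 and adjusted p of 0.0296 and 0.0357 with the block.

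Ndufv1 and Ndufs1 did not pass with or without the block. Ndufv1, the flavin-binding subunit, had a median of 142 CPM in control KD, against 135 CPM in YBX3 KD (log2 fold change -0.093, SE 0.061). Ndufs1, the largest core subunit, had 140 and 137 CPM (-0.029, SE 0.058), which is within the spread between libraries.

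Among the 29 accessory subunits of complex I, which surround the core and are needed for its assembly and stability, 20 were lower and 9 higher, with a median of -0.044. Ndufa10 had 128, 141 and 145 CPM as the lowest, median and highest in control KD and 118, 123 and 131 CPM in YBX3 KD (log2 fold change -0.17, SE 0.047, adjusted p = 0.0779, and 0.025 with the block). Only its highest YBX3 KD library overlapped the control range. Ndufb5, Ndufb6 and Ndufc2, all of the membrane arm, also passed with the block, at log2 fold changes of -0.23, -0.23 and -0.16. Ndufs4 and Ndufb1 had the smallest p among the complex I genes that were higher, at 0.081 (SE 0.095) and 0.086 (SE 0.11), both within the spread.

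Complex II, which is wholly encoded in the nucleus and is also an enzyme of the citric acid cycle, was lower in 4 of 4 genes, with a median of -0.15. Sdha (chr13:74469359-74498436, minus strand), the flavoprotein that oxidizes succinate, had 214, 225, 216 and 221 CPM in control KD at 0 day and 237 and 223 CPM at 1 day. In YBX3 KD it had 199, 208, 194 and 199 CPM at 0 day and 206, 211 and 199 CPM at 1 day. The highest YBX3 KD library lay just under the lowest control KD library. The log2 fold change was -0.14 (SE 0.043, adjusted p = 0.11, and 0.0406 with the block). Sdhb, the iron-sulfur subunit, and Sdhd, a membrane anchor, had log2 fold changes of -0.15 and -0.22 and adjusted p of 0.0381 and 0.0365 with the block, and Sdhc, the other anchor, had -0.12 and 0.10.

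All 9 genes of complex III were lower, with a median of -0.095, and 1 of them, Uqcrc2, passed with the block. Uqcrc2, a core protein of the matrix side, had 121, 125 and 145 CPM in control KD, against 108, 111 and 132 CPM in YBX3 KD (log2 fold change -0.17, SE 0.065, block adjusted p = 0.0376). Cyc1, cytochrome c1, had 171, 229 and 269 CPM in control KD, against 151, 197 and 259 CPM in YBX3 KD, a difference well inside its spread (-0.18, SE 0.12, adjusted p = 0.535). Uqcrfs1, the Rieske iron-sulfur protein, and Uqcrc1 had log2 fold changes of -0.15 (SE 0.099) and -0.093 (SE 0.059).

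Complex IV, here with Ndufa4, had 13 tested members, 10 lower and 3 higher, with a median of -0.081. Cox7c, a small membrane subunit, was the only one to pass with the block. It had 71.3, 76.0 and 86.4 CPM in control KD, against 57.4, 65.0 and 79.98 CPM in YBX3 KD (log2 fold change -0.25, SE 0.085, adjusted p = 0.152, and 0.0125 with the block). All but the 1-day replicate B library of YBX3 KD were below the control range. Cox5a and Cox5b, which sit on the matrix side, had log2 fold changes of -0.096 (SE 0.13) and -0.078 (SE 0.059), and Cox6b1, on the intermembrane side, had -0.087 (SE 0.044). Cox7b2, a form known from testis, had 1.52 to 2.33 CPM over all libraries and a log2 fold change of 0.14 (SE 0.12).

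ATP synthase had 18 tested members, 15 of them lower, with a median of -0.11. Atp5f1a, the alpha subunit, had 688, 734 and 810 CPM in control KD, against 587, 630 and 741 CPM in YBX3 KD (log2 fold change -0.21, SE 0.064, adjusted p = 0.126, and 0.0199 with the block). All but the 1-day replicate B library of YBX3 KD were below the control range. Atp5f1b, the beta subunit, was lower in all 6 pairs but spread widely between letters (-0.12, SE 0.099, adjusted p = 0.601, and 0.0848 with the block). Atp5f1c, the gamma subunit of the rotor, Atp5pb and Atp5po of the stator stalk, and Atp5mc3, 1 of the 3 genes for the c-ring subunit, passed with the block, at log2 fold changes of -0.12, -0.13, -0.19 and -0.18. Atp5if1, the inhibitor that blocks ATP hydrolysis, had 60.6, 64.2 and 69.7 CPM in control KD, against 57.9, 60.8 and 63.0 CPM in YBX3 KD (-0.11, SE 0.052, adjusted p = 0.355).

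**Figure D3:**
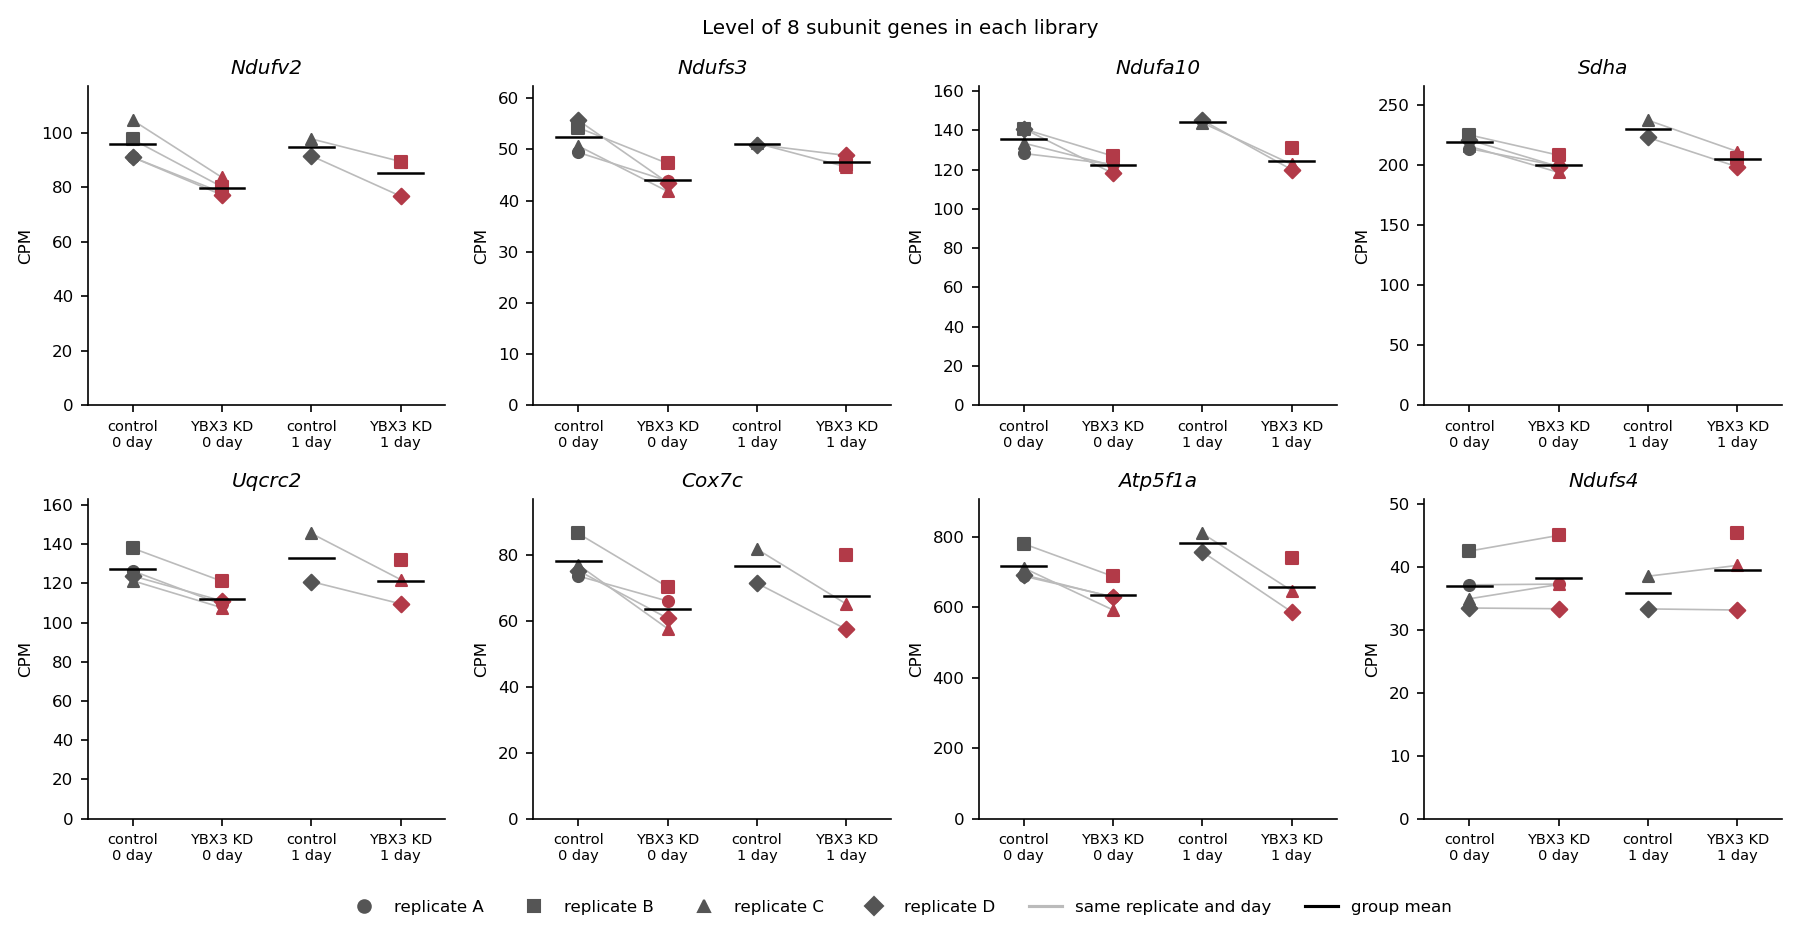
CPM of 8 subunit genes in each of 13 libraries; symbols are replicate letters, grey lines join libraries of the same letter and day, and black lines are group means, with all axes from 0. Ndufv2, Ndufs3 and Sdha are lower in every YBX3 KD library than in every control KD library, and Ndufs4 shows a member that was not lower.

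Most members were lower both with and without an NRF1 motif. Of the 17 with the motif 15 were lower (median log2 fold change -0.093), and of the 48 tested members without it 38 were (median -0.087). With the ETS motif 13 of 16 were lower (median -0.085), and without it 40 of 49 (median -0.090). Of the 4 members with both motifs, Atp5pd was lower in all 6 pairs of the same letter and day and Sdhd passed with the block. Atp5me and Cox6a1 did neither, and Cox6a1 had a median of 189 CPM in control KD, against 188 CPM in YBX3 KD. A part of the motifs in the change was not tested.

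Within each day the members were compared again with the same controls as above. At 0 day 71 of 80 were lower, with a median of -0.11 against -0.004 over all genes. None was called, where 0.0297% of genes were, and none had an adjusted p under 0.05 in edgeR, where 0.427% of genes did (0.22% lower). At an unadjusted p under 0.05 there were 10, all lower, where 11.0% of genes passed (5.38% lower, 5.67% higher). Ndufv2 alone passed with the block (log2 fold change -0.27, SE 0.051, adjusted p = 0.033), where 2.37% of genes did, and DESeq2 gave 2 lower members, where 3.09% of genes passed. Both counts are a smaller share of the 80 members than the background. DESeq2 with the block gave 13 lower members, where 8.0% of genes passed (4.29% lower), and edgeR without letter D gave 1, where 5.49% passed. Unadjusted, 29 members had a p under 0.05 with the block, all lower, where 9.95% of genes were lower and 10.7% higher. At 0 day the highest YBX3 KD library lay below the lowest control for 14 members, against 4.27% of genes, and the reverse held for none, against 4.83%. Uqcrq, a small subunit of complex III, was among them, with 103, 116, 115 and 118 CPM in control KD, against 95.8, 100.5, 94.9 and 94.1 CPM in YBX3 KD.

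At 1 day, with 2 control KD libraries, 47 of 80 members were lower and 33 higher, with a median of -0.058 against 0.015 over all genes. No member was called, nor was any gene (0.0%). None had an adjusted p under 0.05 in edgeR, where 0.0712% of genes did (0.00594% higher), or in DESeq2. At an unadjusted p under 0.05 there were 4 (background 7.79%), with 1 higher (background 4.08%) and 3 lower (background 3.7%). With the block edgeR gave no member at an adjusted p under 0.05, and 24 at an unadjusted p under 0.05, where 22 were lower (background 14.9%) and 2 higher (background 12.2%). The DESeq2 fit with the block gave 14 members, 12 lower and 2 higher, where 14.0% of genes passed. Without control KD replicate C the unpaired median was 0.013. With the block it was -0.094, and within the pairs at 1 day it was -0.137 for replicate C and -0.091 for replicate D, with 61 and 56 of 80 members lower. The groups did not overlap for 9 members that were lower, against 9.4% of genes, and for 6 that were higher, against 10.5%. Ndufa10 and Atp5f1a, among those lower, had log2 fold changes of -0.21 (SE 0.078) and -0.25 (SE 0.11). Ndufa7, an accessory subunit of complex I, was on the other side, with 55.2 and 51.7 CPM in control KD, against 60.9, 63.3 and 72.5 CPM in YBX3 KD (log2 fold change 0.29, SE 0.13, adjusted p = 0.628, and 0.0912 with the block).

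The difference between the 1-day and the 0-day effect of YBX3 KD was tested directly. It was positive for 61 of 80 members, with a median of 0.067 (0.022 with the block), against a median of 0.000 over all genes. No member and no gene had an adjusted p under 0.05 in edgeR, where 3 members (3.75%) had an unadjusted p under 0.05 and 2.64% of all genes did, and no member passed in DESeq2. These were Cox6a2, Uqcrq and Ndufa7, all with a positive difference (background 1.65%). With the block 6 members had an unadjusted p under 0.05, all positive, where 5.09% of genes were positive. Without the libraries of letter D, 1 member did (1.25%), so the count of 3 depended on that replicate.

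The step from 0 day to 1 day asks whether the chain had begun to change after 24 h in differentiation medium. No member passed at an adjusted p under 0.05. Most were slightly higher at 1 day within YBX3 KD and over both siRNAs, but not within control KD. Within control KD 38 members were higher and 42 lower at 1 day (median log2 fold change -0.005), within YBX3 KD 72 were higher (median 0.075) and over both siRNAs 71 were higher (median 0.042), against medians over all genes of -0.003, -0.004 and 0.002. No gene, member or other, had an adjusted p under 0.05 in edgeR in any of the 3 steps (background 0.0%), nor did a member in DESeq2. Within control KD no member had an unadjusted p under 0.05, against 1.44% of genes (0.445% higher). Within YBX3 KD 2 did, both higher, against 4.28% of genes (2.18% higher, 2.1% lower). Over both siRNAs none did, against 2.83% (1.84% lower). With the block the counts were 3, 5 and 3 members, against 6.81%, 7.43% and 4.74% of genes. Without YBX3 KD 1-day replicate B the medians within YBX3 KD and over both siRNAs were -0.003 and 0.003, and with the block and all libraries they were 0.048 and 0.051. Over all alternatives the medians reached 0.129 within YBX3 KD and 0.0803 over both siRNAs, and ran from -0.077 to 0.0492 within control KD. Ndufs6, an accessory subunit of complex I, had 25.9, 27.0, 25.8 and 24.8 CPM in YBX3 KD at 0 day and 32.9, 28.7 and 28.4 CPM at 1 day (log2 fold change 0.21, SE 0.087, adjusted p = 0.988).

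The levels of the members in a library can be summed up by the median of each gene's log2 deviation from its own mean over the 13 libraries. It was -0.04, 0.154, 0.056 and 0.04 in control KD at 0 day and 0.089 and 0.008 at 1 day. In YBX3 KD it was -0.089, 0.029, -0.141 and -0.094 at 0 day and 0.14, -0.028 and -0.067 at 1 day. The groups overlap, replicate B is high in each group that has it, and the YBX3 KD library is lower in each of the 6 pairs. The same median over all genes lay between -0.007 and 0.02.

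**Figure D4:**
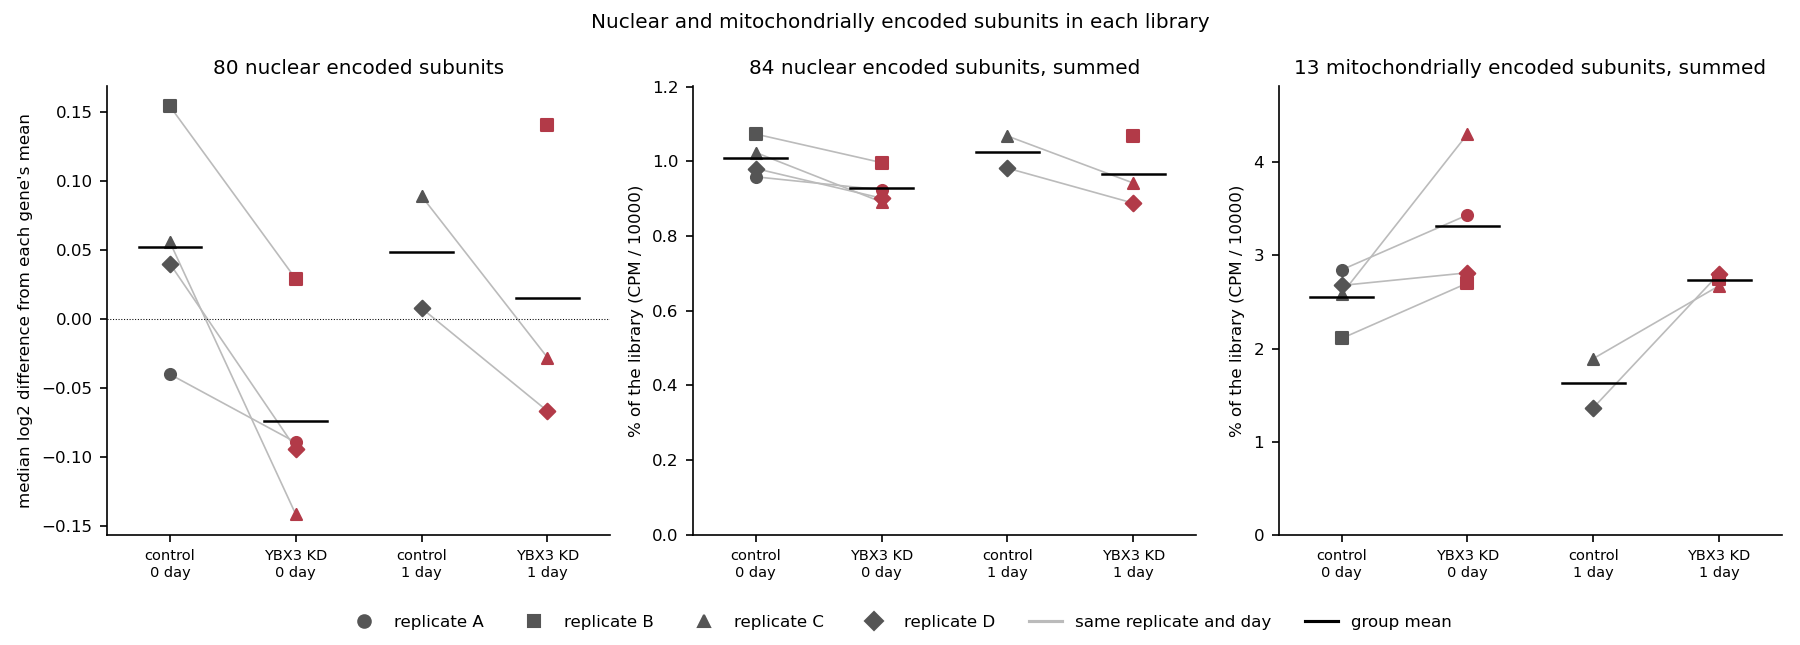
Left, the median log2 deviation of 80 nuclear encoded subunits from each gene's mean, by library; middle and right, the summed level of the 84 nuclear and 13 mitochondrially encoded subunits as a percent of the library. In all 6 pairs of the same letter and day the nuclear set is lower and the mitochondrially encoded set higher after YBX3 KD.

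The 13 subunits encoded by mitochondrial DNA, the partners of the members in complexes I, III, IV and V, had the opposite sign. All 13 had a positive log2 fold change after YBX3 KD over both days, with a median of 0.57. In edgeR mt-Nd4 and mt-Cytb rose, by 0.68 (SE 0.15, adjusted p = 0.0375) and 0.57 (SE 0.12, adjusted p = 0.0334), and with the block 8 of the 13 rose. Over all genes 2.34% passed in edgeR and 9.78% with the block, in either direction. Their summed level was 2.85%, 2.11%, 2.58% and 2.68% of the library in control KD at 0 day and 1.89% and 1.36% at 1 day. In YBX3 KD it was 3.43%, 2.70%, 4.303% and 2.81% at 0 day and 2.74%, 2.67% and 2.80% at 1 day. The lowest values were the 2 control KD libraries at 1 day, and the groups overlap at 0 day. The part of this in the lower level of the nuclear set was not tested.

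An adjusted p under 0.05 was reached by 2.34% of all genes in edgeR (1.04% lower) and 9.78% with the block (4.38% lower). Among the assembly factors, listed by complex, 1 passed in edgeR and 3 passed with the block, all lower. The first was Cox14, which takes part in the synthesis and assembly of mt-Co1 and was named after its value was seen. Its lowest, median and highest were 56.3, 58.2 and 63.9 CPM in control KD, against 41.9, 46.7 and 49.2 CPM in YBX3 KD, without overlap (log2 fold change -0.34, SE 0.057, adjusted p = 0.00991). The others with the block were Bcs1l, which inserts the Rieske protein into complex III, at -0.23 (adjusted p = 0.036), and Cox18, which acts on mt-Co2, at -0.26 (adjusted p = 0.0207). The medians of the lists were -0.091 for complex I (16 tested), -0.010 for complex II (4), 0.037 for complex III (9), -0.061 for complex IV (24) and -0.058 for complex V (4). None of 12 transcriptional regulators passed in edgeR (median -0.083), and with the block 1 did, against 9.78% of all genes. This was Nrf1, at medians of 42.9 CPM in control KD and 37.3 CPM after YBX3 KD (log2 fold change -0.20, adjusted p = 0.265, and -0.23 and 0.0188 with the block). Gabpa, the DNA-binding subunit of GABP, had -0.12 (SE 0.052), and Ppargc1a, a coactivator of mitochondrial biogenesis, did not exceed 0.921 CPM. Every other regulator on the list, including other coactivators, had at least 4.86 CPM in all libraries. Of 4 tested respiratory chain genes outside the symbol rule (Ndufab1, Cox4i1, Cox7a2l and Cycs) none passed, and all 4 were negative, from -0.25 to -0.033. Of the 3 tested adenine nucleotide and phosphate carriers, Slc25a5 passed with the block (log2 fold change -0.19, adjusted p = 0.592, and -0.24 and 0.0433 with the block).

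Complex IV has forms of some subunits that adult heart and skeletal muscle use in place of the widely expressed ones. Per kilobase of transcript, Cox6a1 had a median of 330.0 CPM and its muscle form Cox6a2 0.38, Cox7a2 had 88.3 and Cox7a1 0.487, and Cox8a had 359 and Cox8b 0.009. The smallest ratio of the widely expressed to the muscle form in any library where the latter had a count was 89.9, 95.9 and 2110. The muscle forms were near the floor of detection, with 317 counts over all libraries for Cox6a2, 140 for Cox7a1 and 26 for Cox8b, which had none in 6 libraries. Cox6b2, a testis form, had 2 counts in all.

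**Figure D5:**
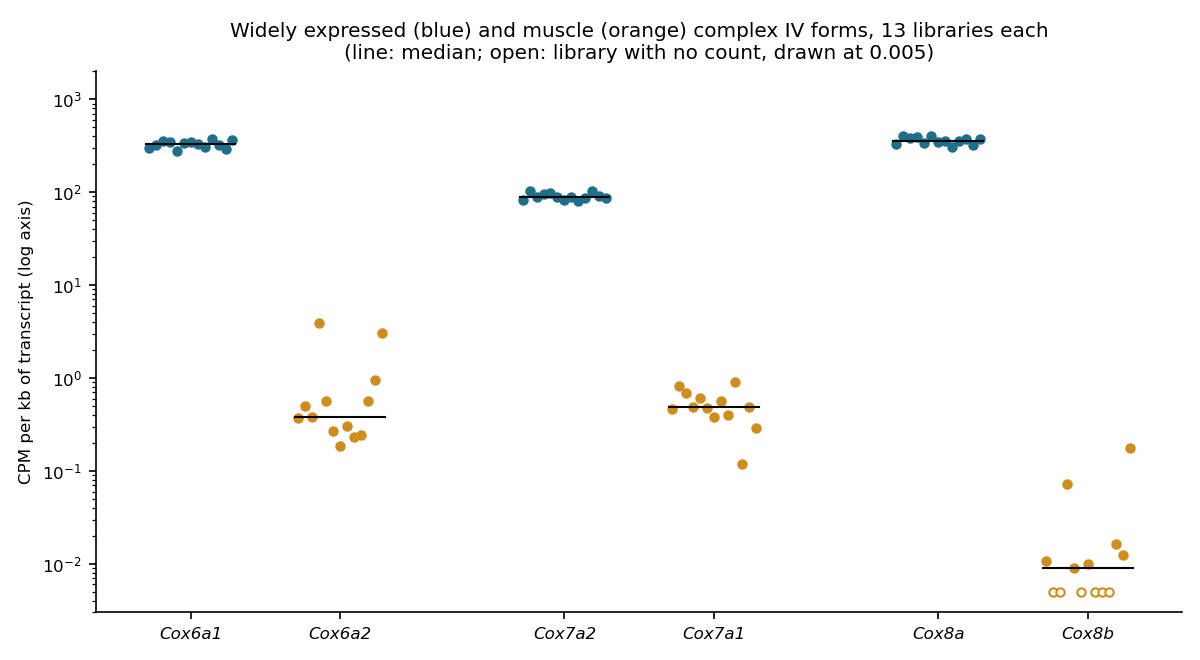
CPM per kilobase of transcript on a log axis for 3 widely expressed complex IV subunits (blue) and their muscle forms (orange), with 1 point per library and the median as a line. The muscle forms lie far below their partners in every library, and the highest Cox6a2 and Cox8b points are replicate D libraries.

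Cox6a2 varied more than any other tested member in control KD at 0 day and was high in 2 replicate D libraries. It had 0.251, 0.341, 0.259 and 2.65 CPM in control KD at 0 day and 0.388 and 0.183 CPM at 1 day. In YBX3 KD it had 0.127, 0.209, 0.156 and 0.164 CPM at 0 day and 0.388, 0.644 and 2.07 CPM at 1 day. The difference between the days in its log2 fold change was 4.17 (SE 1.41, adjusted p = 1.0), and 1.16 (SE 0.68) without the libraries of letter D. Over both days its log2 fold change was -0.94, against -0.37 without letter D and 0.32 without control KD 0-day replicate D alone. The differentiation markers did not rise as a set at 1 day: of 7 tested, 2 were higher and 5 lower over both siRNAs (median -0.21). The 2 higher were Myog and Ckm, with log2 fold changes of 1.07 and 0.779 and at most 3.46 and 2.52 CPM. None of the 7 had an adjusted p under 0.05, nor did any gene in this step in edgeR. The test therefore cannot show that there was no rise. After YBX3 KD over both days 6 of the 7 were higher (median 0.65), again with no adjusted p under 0.05, and their part in the values above was not tested.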

How the data were processed

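RNAseq of 13 C2C12 libraries was analysed. The deposited values are estimated counts per gene, whole and not normalized, which the authors made with Salmon from the Gencode M30 transcripts of GRCm39. The step that made them whole is not given in the sources used here. Identifiers were joined to GENCODE vM39 for symbols and positions. Salmon shares reads among similar sequences, so genes with near copies are uncertain: 11 pseudogenes named after members held 942 counts, 0.0157% of the members' counts.

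Genes were filtered with filterByExpr, scaled by TMM and tested with edgeR 4.0.16 (glmQLFit, glmQLFTest) in R 4.3.3, with Benjamini-Hochberg adjustment over 16848 genes. Fits over both days or both siRNAs were additive and the others had a coefficient for each of the 4 groups. DESeq2 1.42.0 was an alternative. Tables were made in Python 3.11.15 with pandas 2.3.3 and numpy 2.4.6. Calls followed the study's thresholds, a fold change above 1.3 and an adjusted p under 0.001. The code was tested on simulated data.

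Libraries of different groups that shared a letter deviated together in 16 of 16 cases (residual correlation 0.117 to 0.730, median 0.338, all past 0.1), while libraries of different letters did so in 11 of 46 (median -0.146), so the letters from the labels were taken to pair the samples. The numbers in the titles gave 8 of 16. Residuals were deviations from group means, so correlations above 0 for the same letter push those for different letters below 0. The correlations are also not independent, so the contrast with different letters is partly built in. The labels call the samples biological replicates and do not say how cultures were separated, so p-values measure the spread between these samples. No libraries were duplicates (chi-square per degree of freedom at least 18.96 over 16 pairs).

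Named genes were Ybx3, the isoform pairs of complex IV, core subunits of each complex, Atp5if1, and the 3 members with the smallest p in each direction of each comparison. Members that passed with the block were named as well after their values were seen. Some genes of the lists are not reported here by name. The members, roles and lists were chosen with earlier results of these data known.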

Additional observations from a re-analysis of the deposited data

Results flagged for a closer look

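Among 86 groups of 4 libraries tested for a single distant library over the named members and summed levels, 6 had one by Dixon's criterion, and chance gives about 1 in 20. Atp5f1e, the epsilon subunit of ATP synthase, had 39.3 CPM in YBX3 KD 0-day replicate C against 49.4 to 51.0 CPM in the others. Ndufs1 had 147 CPM in YBX3 KD 0-day replicate B against 136 to 137 CPM. The summed level of complex III in YBX3 KD at 0 day was 1100 CPM in replicate B against 991 to 999 CPM. Cox6a2 had 2.65 CPM in control KD 0-day replicate D against 0.251 to 0.341 CPM. Cox8b had 0.154 CPM, from 5 counts, in the same library against 0.0 to 0.0228 CPM. Its 0.0212 CPM in YBX3 KD 0-day replicate A was 1 count against 0 in the others. Such a case meets the criterion at any count, so the chance rate does not apply to it.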

How the results depend on the processing

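No member was called under any of the 21 alternatives in any of the 7 comparisons. At an adjusted p under 0.05, YBX3 KD over both days gave 0 members in edgeR, 18 with the letter as a replicate block, 8 in DESeq2, 28 in DESeq2 with the replicate block, 4 without all libraries of letter D, and 0 to 2 leaving out 1 library. At 0 day the counts were 0, 1, 2, 13 and 1 in that order, where 0.427%, 2.37%, 3.09%, 8.0% and 5.49% of all genes passed, and at 1 day the DESeq2 fit with the replicate block gave 14. In edgeR the replicate block changed no other count at an adjusted p under 0.05. The median over the members stayed negative for YBX3 KD over both days (-0.115 to -0.0678) and at 0 day (-0.148 to -0.0902), and ran from -0.0999 with the replicate block in DESeq2 to 0.0134 without control KD replicate C at 1 day. Of 1260 values of named results, 1243 kept their direction and 17 reversed. Without letter D, Cox6a1 at 0 day was -0.00113, Cox6a2 from 0 day to 1 day in control KD was 0.444, and Atp5mg over both siRNAs was 0.0174. Leaving out 1 library at a time, the ranges that crossed 0 were, for YBX3 KD over both days, Cox6a2 -1.56 to 0.319 and Ndufs1 -0.0547 to 0.000629. At 0 day they were Cox6a1 -0.0244 to 0.0674, Cox6c -0.0319 to 0.157 and Ndufs4 -0.0482 to 0.112. For the difference between days Ndufa5 ran from -0.348 to 0.00108. For the steps between days they were Cox6a2 -2.22 to 0.0244 in control KD, Cox6a1 -0.134 to 0.0328 and Ndufb7 -0.127 to 0.0247 in YBX3 KD, and Atp5mg -0.0807 to 0.012 over both siRNAs. The cause was not tested. Depth limits the muscle forms of complex IV, and the 2 control KD libraries limit every comparison at 1 day.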
